A study of Mus musculus with 12 samples.

Results

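The expression of 10 genes of blood vessels was followed in the gastrocnemius muscle of mice with conditional DUX4-fl expression; the genes were chosen by name from the 37748 genes quantified. The 10 genes were Vegfa, the main angiogenic ligand, its receptors Kdr and Flt1, the angiopoietin receptor Tek and its relative Tie1, the junction and adhesion genes Cdh5, Pecam1 and Esam, and the secreted proteins Vwf and Egfl7. All 10 passed the filter on low counts and were among the 16679 genes tested. RNA-seq libraries were made from whole muscle of 12 mice at 13 weeks of age, 3 mice in each of 4 groups. Controls were ACTA1-MCM/+ mice, which carry only the tamoxifen-inducible Cre recombinase MerCreMer under the skeletal muscle promoter ACTA1. FLExD/+ mice (FLExD) carried, by their strain label, only the FLExDUX4 transgene, which makes DUX4-fl from the Rosa26 locus after Cre recombination. Both transgenes were present, as FLExDUX4/+;MCM/+, in the moderate and the severe model. The moderate mice received 1 intraperitoneal injection of tamoxifen (TMX) at 5 mg/kg and the severe mice 2 injections at 10 mg/kg on consecutive days, and their muscles were taken on day 9. The labels are not uniform on severity. The FLExD libraries are described as mild pathology, and the injection protocol calls the 5 mg/kg model mild where the sample labels call it moderate. The strain and treatment labels were followed here. Neither control nor FLExD mice received TMX, so effects of TMX and of the recombined transgene cannot be told apart here. ACTA1-MCM restricts recombination to skeletal muscle fibers and only some of them recombine, whereas 9 of the 10 genes, all but Vegfa, are known mainly from endothelial cells. DUX4-fl itself was not analysed here.

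Blood vessels in muscle are lined by endothelial cells. Muscle fibers and other cells secrete VEGF-A, which binds the receptor tyrosine kinases VEGFR2 (Kdr), the main signaling receptor, and VEGFR1 (Flt1), which also serves as a decoy. A separate system, angiopoietins acting on Tie2 (Tek) with Tie1 as a partner, controls vessel maturation and stability. VE-cadherin (Cdh5), PECAM-1 (Pecam1) and ESAM (Esam) hold endothelial cells together, von Willebrand factor (Vwf) is stored in endothelial cells and platelets for hemostasis, and Egfl7 is an extracellular matrix protein made by endothelial cells, whose gene hosts miR-126.

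The genes lie on different chromosomes of GRCm38 (mm10), apart from Kdr and Flt1 on chromosome 5 and Tek and Tie1 on chromosome 4. Vegfa spans chr17:46016993-46032369 on the minus strand, Kdr chr5:75932827-75978458 and Flt1 chr5:147561604-147726011, both on the minus strand. RefSeq promoter entries matched 6 of the 10 genes (Vegfa, Kdr, Flt1, Tek, Tie1 and Egfl7). The 250 bases before the start are given for the ligand and its receptors, which fell the most in severe versus control muscle, and for Tie1, which fell less there with TMM. Capitals mark matches on either strand to 5 motifs: ACGTG, a form of the core bound by hypoxia-inducible factors, AGGAAG and CGGAAG, which are ETS cores that share GGAAG, the GC box GGGCGG, and the GATA core AGATAA. The other form of the hypoxia core, GCGTG, was not searched.
Vegfa, minus strand of chr17:46032378-46032627 (GRCm38.p6): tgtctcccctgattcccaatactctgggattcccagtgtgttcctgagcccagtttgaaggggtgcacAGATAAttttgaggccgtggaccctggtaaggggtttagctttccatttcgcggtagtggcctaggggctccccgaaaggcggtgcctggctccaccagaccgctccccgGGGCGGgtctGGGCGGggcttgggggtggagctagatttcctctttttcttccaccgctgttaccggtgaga
Kdr, minus strand of chr5:75978456-75978705: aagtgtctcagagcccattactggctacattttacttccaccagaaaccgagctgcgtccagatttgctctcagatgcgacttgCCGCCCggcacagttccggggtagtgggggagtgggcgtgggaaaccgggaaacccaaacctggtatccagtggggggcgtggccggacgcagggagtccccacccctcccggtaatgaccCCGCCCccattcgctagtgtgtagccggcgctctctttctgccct
Flt1, minus strand of chr5:147726012-147726261: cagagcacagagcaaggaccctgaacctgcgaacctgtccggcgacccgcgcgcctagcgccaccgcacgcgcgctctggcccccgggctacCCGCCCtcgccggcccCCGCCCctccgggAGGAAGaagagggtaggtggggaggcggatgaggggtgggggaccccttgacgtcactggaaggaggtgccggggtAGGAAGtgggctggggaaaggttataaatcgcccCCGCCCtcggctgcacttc
Tie1, minus strand of chr4:118489850-118490099: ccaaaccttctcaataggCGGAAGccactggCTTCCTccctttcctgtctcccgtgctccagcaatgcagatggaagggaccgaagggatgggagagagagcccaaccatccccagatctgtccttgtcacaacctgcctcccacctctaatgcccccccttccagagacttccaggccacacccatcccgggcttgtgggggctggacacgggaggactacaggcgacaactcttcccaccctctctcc
The Vegfa window held 2 GC boxes, 72 and 62 bases before the start, and 1 AGATAA. The Kdr window held 2 GC boxes, and the Flt1 window 3 GC boxes and 2 AGGAAG motifs. The Tie1 window held 1 AGGAAG and 1 CGGAAG and no GC box, and the Tek window held none of the 5 motifs. GC boxes were found in 32.7% of the same windows of all 32851 promoters in the table, AGGAAG in 29.5%, ACGTG in 16.6%, CGGAAG in 13.6% and AGATAA in 9.99%. ACGTG did not occur in the 4 windows shown, and occurred once before another listed Vegfa start, in chr17:46025164-46025413, which lies within the span of Vegfa. For both Vegfa starts, the bases that follow matched no GENCODE M21 transcript of the gene, whereas those of Kdr, Flt1 and Tie1 did. The first Vegfa window begins at 46032378, just outside the GENCODE span of Vegfa, which ends at 46032369. The bases that follow it thus begin outside the span and could not match, so the comparison does not bear on that start. The other Vegfa start, within the span, is uncertain. These matches describe letters in a short window only.

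The libraries held 23796902 to 29136403 counts and differed in composition. The 20 genes with the most counts in the controls took 57.7 to 58.5% of all counts in control, 56.8 to 58.5% in FLExD, 47.3 to 49.3% in moderate and 30.4 to 33.2% in severe libraries. The scaling sets the direction for many genes. With TMM factors the median log2 fold change of all genes was 0.08 in severe versus control muscle, and with library size alone it was 1.39. For moderate versus control the medians were 0.04 and 0.65. The main values are counts scaled to a common library total (CPM) with TMM-adjusted library sizes, a measure of a gene against the bulk of other genes. Library size alone measures a share of all RNA counted, and a scaling on 20 of the other pan-endothelial genes described further on, added after the data had been seen, measures a gene against the endothelial transcripts. Levels of different genes are compared only as TPM, transcript abundance corrected for length. In whole muscle, fewer cells of a type and less RNA per cell cannot be told apart. p-values set the difference between groups against the spread between mice within groups, which the 4 groups share in 1 fit.

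With TMM, 9 of the 10 genes were lower in the severe model than in the control and 5 were lower in the moderate model. Calls required an adjusted p under 0.05 in edgeR's quasi-likelihood test and a log2 fold change of 0.5 or more in size. In severe versus control muscle 27.9% of all genes tested were called lower and 32.9% higher, and in moderate versus control muscle 17% and 24.4%. The median log2 fold change of the 10 genes was -1.12 in the severe and -0.50 in the moderate comparison. With library size alone these medians became 0.18 and 0.10, and with the endothelial scaling -0.24 and -0.06. The shares of genes called moved as well. In severe versus control muscle 6.42% were called lower and 75.4% higher with library size alone, and 10.1% and 63.3% with the endothelial scaling. In moderate versus control muscle the shares were 4.51% and 52.5%, and 6.15% and 42.4%. In severe versus moderate muscle they were 4.93% and 57.8%, and 8.51% and 40.2%. Of the 10 genes, 2 were called lower and 2 higher with library size alone in severe versus control muscle, 1 and 1 in moderate versus control, and 2 and 1 in severe versus moderate. Relative to the median of all genes, the medians of the 10 were -1.20 with either TMM or library size in severe muscle and -0.55 with TMM in moderate muscle. In severe versus moderate muscle 7 of the 10 were called lower, where 18.8% of all genes tested were called lower and 17.6% higher. No member was called higher by edgeR with TMM in these 3 comparisons, none was higher at an unadjusted p under 0.05, and DESeq2 called none higher. limma on log2(TPM + 1) called 2 higher in severe versus control muscle and 1 higher in severe versus moderate muscle. Of all 16679 genes tested, limma called 10713 higher and 998 lower in severe versus control muscle. In severe versus moderate muscle it called 8050 higher and 642 lower.

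For 9 of the 10 genes every mouse of the more affected group had a lower CPM with TMM than every mouse of the less affected group in these 3 comparisons, and Vwf overlapped. Among all genes tested, 34.9% were lower in every severe mouse than in every control and 40% higher. For moderate against control mice the shares were 28.5% and 32.6%, and for severe against moderate mice 30.8% and 30.5%. The counts differed with library size alone. In severe against control mice 3 of the 10 were then lower in every mouse (Vegfa, Kdr and Flt1), 5 were higher (Tie1, Cdh5, Pecam1, Esam and Vwf) and 2 overlapped, where 7.87% of all genes were lower and 79.4% higher. In moderate against control mice 1 was lower (Kdr), 2 were higher (Pecam1 and Vwf) and 7 overlapped, where 7.43% of all genes were lower and 65.2% higher. In severe against moderate mice 3 were lower (Vegfa, Kdr and Flt1), 2 higher (Pecam1 and Vwf) and 5 overlapped, where 7.84% of all genes were lower and 69.6% higher.

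**Figure D1:**
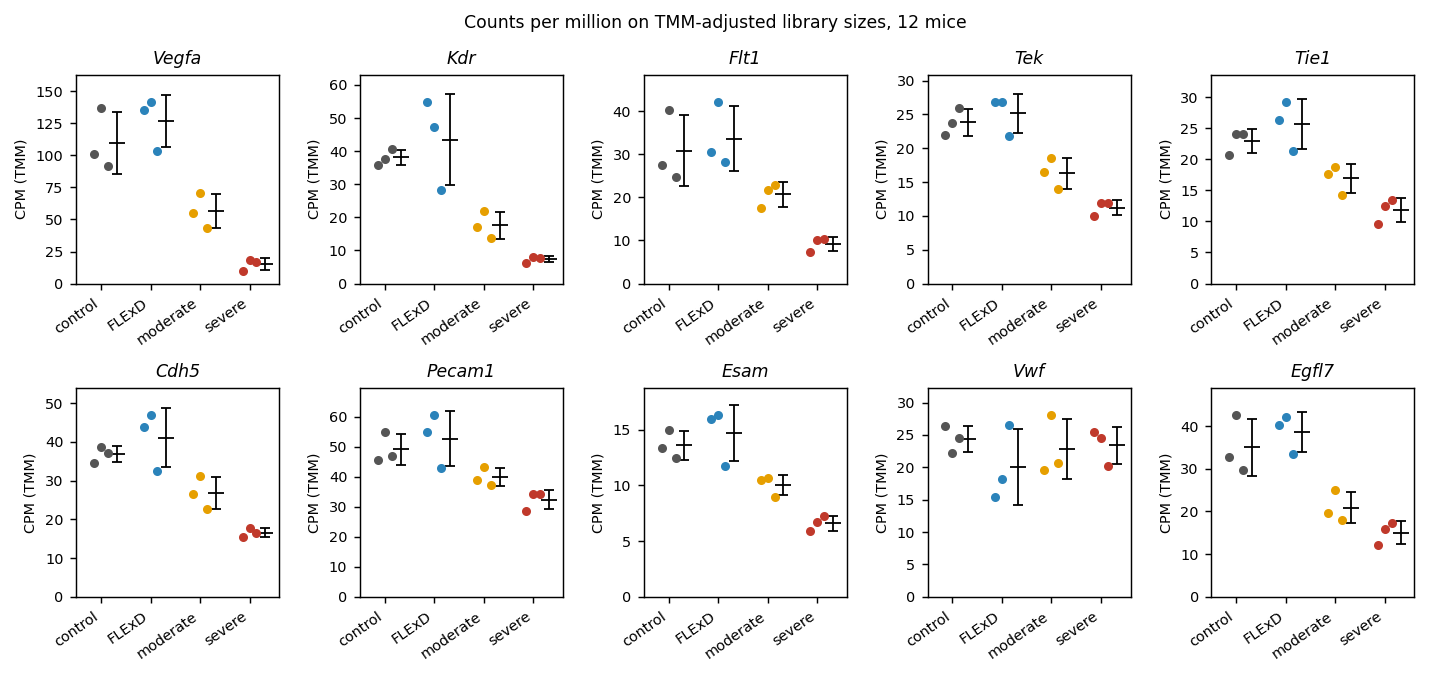
CPM on TMM-adjusted library sizes (y axis, from 0) for the 10 genes in control, FLExD, moderate and severe mice (x axis). Each point is 1 mouse, and the bar beside each group is the mean ± SD of 3 mice. All 3 severe mice lie below all 3 controls for every gene but Vwf, whereas with library size alone 3 genes lie below and 5 above.

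Between FLExD and control muscle none of the 10 genes was called by edgeR, DESeq2 or limma, and none passed an unadjusted p under 0.05 in edgeR. All 10 overlapped between these groups with either scaling, where with TMM 4.59% of all genes tested were lower in every FLExD mouse and 4.01% higher, and with library size 3.02% and 5.07%. edgeR called 0.006% of all genes lower and 0% higher here. The log2 fold changes ran from -0.28 (SE 0.19) for Vwf to 0.21 (SE 0.25) for Vegfa.

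Vegfa, the ligand, fell the most of the 10 in the severe model. It measured 101, 137 and 91.6 CPM in the 3 controls and 135, 142 and 104 CPM in the FLExD mice. It measured 55.1, 70.3 and 43.7 CPM in the moderate and 9.69, 18.7 and 17 CPM in the severe mice. The moderate mice all lay below the controls, and the severe mice below both, while with library size alone the moderate mice overlapped the controls. The log2 fold change was -0.96 (SE 0.25, adjusted p = 0.0072) in the moderate model and -2.86 (SE 0.27, adjusted p = 1.6e-06) in the severe model, and -1.90 (SE 0.26, adjusted p = 0.00012) between the models. As a share of all counts it was still lower in the severe model, by a log2 fold change of -1.57, and against the 20 endothelial genes by -2.0. The moderate change was smaller under these scalings, -0.35 (adjusted p = 0.19) with library size and -0.51 (adjusted p = 0.013) with the endothelial genes. RSEM divided some reads of Vegfa among genes or loci, since its counts were not whole in 11 of 12 mice.

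Kdr, the main signaling receptor for VEGF-A, fell next. It measured 36.0, 37.8 and 40.5 CPM in the controls and a wide 54.9, 47.1 and 28.3 CPM in the FLExD mice. It measured 17.1, 21.9 and 13.8 CPM in the moderate and 6.27, 8.02 and 7.66 CPM in the severe mice. Each step from control to moderate to severe was free of overlap, also with library size alone. The log2 fold change was -1.11 (SE 0.22, adjusted p = 0.0011) in the moderate and -2.38 (SE 0.23, adjusted p = 1.5e-06) in the severe model. Kdr was called lower in both models under all 9 settings tried, with severe values from -2.41 to -0.91. Between the models it was called under 8 of the 9, at -1.27 (SE 0.23) with TMM, and missed the threshold with limma on log2(TPM + 1), at -0.37 (adjusted p = 0.050).

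Flt1, the other VEGF-A receptor, fell in both models with TMM. It measured 27.4, 40.3 and 24.8 CPM in the controls and 30.6, 42.2 and 28.2 CPM in the FLExD mice. It measured 17.5, 21.7 and 22.8 CPM in the moderate and 7.39, 10.0 and 10.3 CPM in the severe mice. The highest control was mouse 1246, which also had the highest Vegfa and Egfl7 among the controls. Severe against control, the log2 fold change was -1.74 (SE 0.21, adjusted p = 9.0e-06), and -0.86 (adjusted p = 9.4e-05) against the endothelial genes. With library size alone it was -0.44, short of the fold threshold. In the moderate model the change of -0.58 (SE 0.20, adjusted p = 0.030) was not called without control mouse 1246, at -0.37, without moderate mouse 1236, at -0.47, or without moderate mouse 1308, at -0.61 (adjusted p = 0.055). It was 0.03 with library size alone.

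Tek and Tie1, the angiopoietin receptor pair, fell side by side with TMM. Tek measured 21.9, 23.7 and 25.9 CPM in the controls, 26.9, 26.8 and 21.8 in the FLExD, 16.4, 18.5 and 13.9 in the moderate and 9.92, 11.9 and 11.9 in the severe mice. Tie1 measured 20.7, 24.1 and 24 CPM in the controls, 26.3, 29.2 and 21.3 in the FLExD, 17.7, 18.8 and 14.2 in the moderate and 9.65, 12.5 and 13.5 in the severe mice. For both, no severe mouse reached the lowest moderate mouse, and no moderate mouse the lowest control, but with library size alone Tek overlapped in all 3 comparisons and Tie1 was higher in every severe mouse than in every control. Between severe and control muscle the log2 fold changes with TMM were -1.09 (SE 0.12, adjusted p = 2.0e-06) for Tek and -0.95 (SE 0.15, adjusted p = 4.6e-05) for Tie1, but 0.21 and 0.34 with library size alone and -0.21 and -0.08, not called, with the endothelial scaling. In the moderate model Tek was called, at -0.55 with TMM, but not without moderate mouse 1331, at -0.48, and it was 0.06 with library size alone. Tie1, at -0.44, was not called there, though it was without control mouse 1127, at -0.54, or without moderate mouse 1308, at -0.52. Between the models the TMM changes were -0.54 for Tek and -0.51 for Tie1, and 0.16 and 0.18 with library size alone. Tek was not called there without moderate mouse 1308, at -0.44, or severe mouse 1047, at -0.45. Tie1 was not called there without moderate mouse 1236, at -0.48, moderate mouse 1308, at -0.43, or severe mouse 1047, at -0.38.

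The junction and adhesion genes fell in the severe model with TMM, but none was called lower there as a share of all counts. Cdh5, which encodes VE-cadherin and is close to restricted to endothelial cells, measured 34.6, 38.7 and 37.1 CPM in the controls, 43.9, 46.9 and 32.4 in the FLExD, 26.5, 31.2 and 22.7 in the moderate and 15.6, 17.7 and 16.4 in the severe mice. Esam measured 13.3, 15.0 and 12.5 CPM in the controls, 16, 16.3 and 11.8 in the FLExD, 10.5, 10.7 and 8.97 in the moderate and 5.88, 6.72 and 7.22 in the severe mice. For both genes the control, moderate and severe groups did not overlap with TMM. Both were higher in every severe mouse than in every control with library size alone, and the moderate mice overlapped the controls and the severe mice. In severe versus control muscle Cdh5 changed by a log2 fold of -1.15 (SE 0.14, adjusted p = 3.1e-06) and Esam by -1.04 (SE 0.14, adjusted p = 8.5e-06) with TMM, whereas with library size alone the values were 0.15 and 0.26, neither called. In the moderate model both stayed short of the fold threshold, Cdh5 at -0.46 and Esam at -0.44. Cdh5 was called there without control mouse 1127, at -0.53, or moderate mouse 1308, at -0.58, and Esam without control mouse 1349, at -0.53. Between the models Cdh5 changed by -0.69 and Esam by -0.60 with TMM, and by 0.0018 and 0.088 with library size alone.

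Pecam1 fell the least of the 9 genes called in severe muscle with TMM. It measured 45.5, 55.1 and 46.9 CPM in the controls, 54.8, 60.6 and 42.9 in the FLExD, 38.9, 43.3 and 37.4 in the moderate and 28.7, 34.1 and 34.4 in the severe mice. On this scale every severe mouse lay below every moderate mouse, and every moderate mouse below every control, and with library size alone each of these orders was the opposite. On the TPM scale the severe mice lay above the controls, with 13.8, 17.1 and 15.4 TPM in the controls and 22.7, 26.0 and 23.1 TPM in the severe mice. The log2 fold change in severe versus control muscle was -0.60 (SE 0.12, adjusted p = 0.00059) with TMM, and 0.70 (adjusted p = 3.2e-05) with library size alone and 0.60 (adjusted p = 0.00036) by limma on log2(TPM + 1), both called higher. With the endothelial scaling it was 0.28, not called. PECAM-1 is also found on leukocytes and platelets. The 6 macrophage and leukocyte markers, summed, went from 44.3 to 54.7 TPM in the controls to 1435 to 1689 TPM in the severe mice, and their part in the Pecam1 values was not tested.

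Vwf was the 1 gene of the 10 not called lower in severe muscle with TMM. It measured 26.4, 22.3 and 24.6 CPM in the controls and 15.3, 18.2 and 26.6 CPM in the FLExD mice. It measured 19.5, 28.1 and 20.7 CPM in the moderate and 25.5, 24.5 and 20.1 CPM in the severe mice. The 4 groups overlapped, and the log2 fold change in severe versus control muscle was -0.06 (SE 0.18, adjusted p = 0.78). As TPM, Vwf rose from 2.91, 2.59 and 3.22 in the controls to 7.08, 7.10 and 5.11 in the severe mice. It was called higher in severe muscle as a share of all counts, at 1.25 (adjusted p = 7.4e-05), by limma on log2(TPM + 1), at 0.92 (adjusted p = 0.00043), and with the endothelial scaling, at 0.84 (adjusted p = 0.0027). Vwf is also made by megakaryocytes and held in platelets. Of the 5 platelet and megakaryocyte markers 3 were abundant enough to test. The sum of all 5 went from 5.32 to 8.90 TPM in the controls to 99.0 to 132 TPM in the severe mice, mainly through Pf4, and the part of these cells in the Vwf values was not tested.

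Egfl7, the matrix protein, fell in both models with TMM. It measured 32.7, 42.6 and 29.7 CPM in the controls, 40.3, 42.1 and 33.4 in the FLExD, 19.6, 24.9 and 18.1 in the moderate and 12.1, 15.8 and 17.2 in the severe mice. The control, moderate and severe groups did not overlap on this scale, and they overlapped in all 3 comparisons with library size alone. The log2 fold change was -0.75 (SE 0.17, adjusted p = 0.0020) in the moderate and -1.22 (SE 0.17, adjusted p = 2.0e-05) in the severe model with TMM, but -0.14 and 0.08 with library size alone, neither called. Between the models it was -0.47 and not called, though it was without moderate mouse 1236, at -0.52, without moderate mouse 1331, at -0.55, without severe mouse 1066, at -0.51, or without severe mouse 1079, at -0.58. Agpat2 lies over a part of Egfl7 on the other strand, and Gm20532 overlaps Egfl7 on the same strand. The library kit did not mark strand, and RSEM gave Egfl7 counts that were not whole in all 12 mice. Reads from the shared parts cannot be told apart. Gm29682 overlaps Cdh5 on the other strand too, but the Cdh5 counts were whole in all 12 mice.

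**Figure D2:**
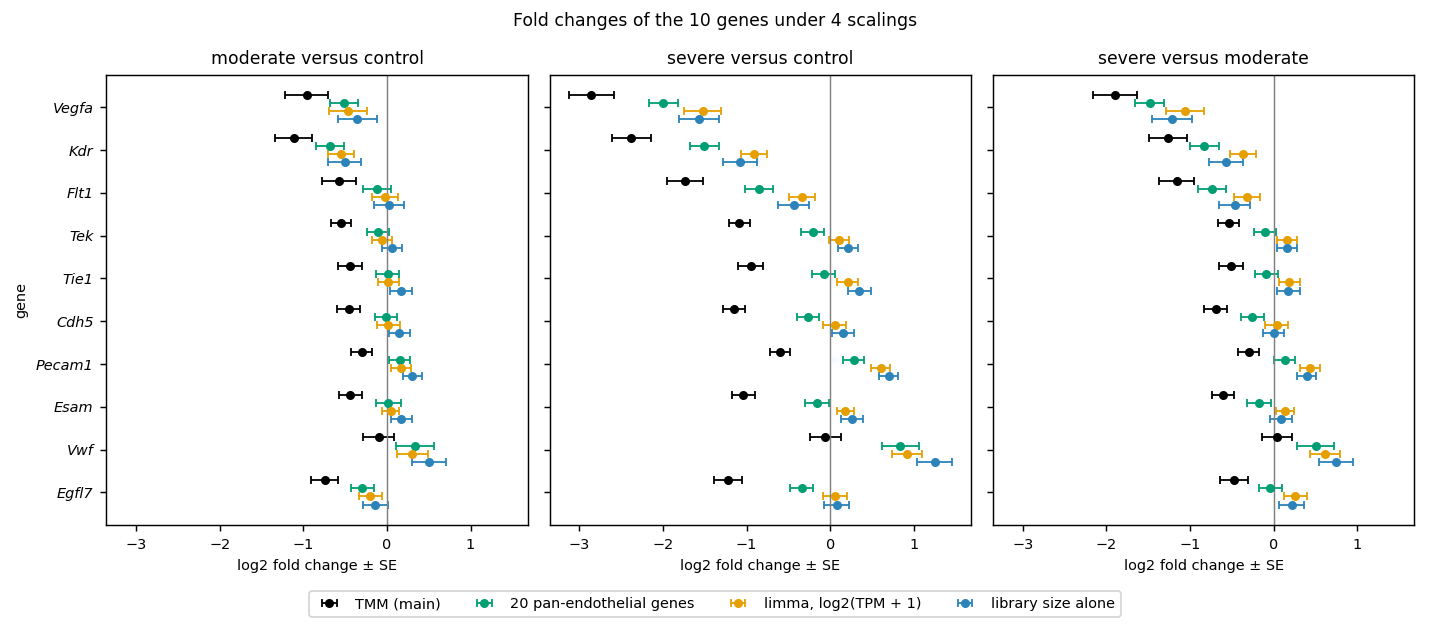
Log2 fold change ± SE (x axis) of the 10 genes (y axis) in 3 comparisons, each under TMM, a scaling on 20 pan-endothelial genes, limma on log2(TPM + 1) and library size alone. In severe versus control muscle Vegfa and Kdr lie below 0 under all 4, while Pecam1 moves from -0.60 to 0.70 and Vwf from -0.06 to 1.25.

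Ratios of counts within a library need no scaling. Against Cdh5, Vegfa and Kdr were lower in both models, and Vwf and Pecam1 were higher in the severe model. Cdh5 itself fell against the bulk of genes. Relative to the median of all genes, in severe versus control muscle with TMM, Cdh5 changed by -1.23, Pecam1 by -0.68 and Vwf by -0.14. The higher ratios of Vwf and Pecam1 are thus no rise against the bulk of genes. Ratios of all other genes to Cdh5 were not computed. Since 3 against 3 mice cannot reach a two-sided p below 0.10 in an exact permutation test, the ratios are given by their values and overlap. Vegfa counts were 2.92, 3.54 and 2.47 times those of Cdh5 in the controls and 3.08, 3.02 and 3.20 times in the FLExD mice. They were 2.08, 2.26 and 1.93 times in the moderate and 0.623, 1.06 and 1.04 times in the severe mice. No moderate mouse reached the lowest control, and no severe mouse the lowest moderate mouse, and the geometric mean was 0.299 times that of the controls in the severe mice. Severe mouse 1047 had the lowest ratio, and without it the severe minus control log2 difference went from -1.74 to -1.49.

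The Kdr to Cdh5 ratio was lower in both models as well. It was 1.04, 0.976 and 1.09 in the controls, 1.25, 1.01 and 0.872 in the FLExD, 0.645, 0.704 and 0.608 in the moderate and 0.403, 0.453 and 0.467 in the severe mice. The mean log2 ratio was 0.05 ± 0.08 (SD, n = 3) in control, -0.62 ± 0.11 in moderate and -1.18 ± 0.11 in severe mice, with no overlap between these groups. Flt1 counts were 0.762, 1.07 and 0.612 times those of Kdr in the controls and 1.18, 1.25 and 1.35 times in the severe mice, all above the controls. In the moderate mice this ratio was 1.03, 0.991 and 1.65 and overlapped the controls. The moderate minus control log2 difference of 0.58 was 0.35 without moderate mouse 1331.

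The Vwf to Cdh5 ratio was 0.762, 0.575 and 0.662 in the controls and 1.64, 1.38 and 1.23 in the severe mice, with 0.738, 0.900 and 0.911 in the moderate mice. The severe minus control log2 difference was 1.09, or 2.13-fold, and no severe mouse overlapped a control or a moderate mouse. The FLExD mice were the most scattered, at 0.350, 0.389 and 0.820. Their log2 difference from the controls was -0.46, and -0.84 without FLExD mouse 1378. The Pecam1 to Cdh5 ratio was 1.32, 1.42 and 1.26 in the controls, 1.47, 1.39 and 1.65 in the moderate and 1.84, 1.93 and 2.10 in the severe mice, a severe minus control log2 difference of 0.55.

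The other 3 ratios overlapped between severe and control mice, which does not show that they were equal. Esam counts were 0.385, 0.387 and 0.336 times those of Cdh5 in the controls and 0.378, 0.379 and 0.440 times in the severe mice, a log2 difference of 0.11. Tek counts were 1.06, 0.982 and 1.08 times those of Tie1 in the controls and 1.03, 0.953 and 0.884 times in the severe mice, a log2 difference of -0.13. The Egfl7 to Cdh5 ratio was 0.946, 1.10 and 0.800 in the controls and 0.780, 0.894 and 1.05 in the severe mice, a log2 difference of -0.06.

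**Figure D3:**
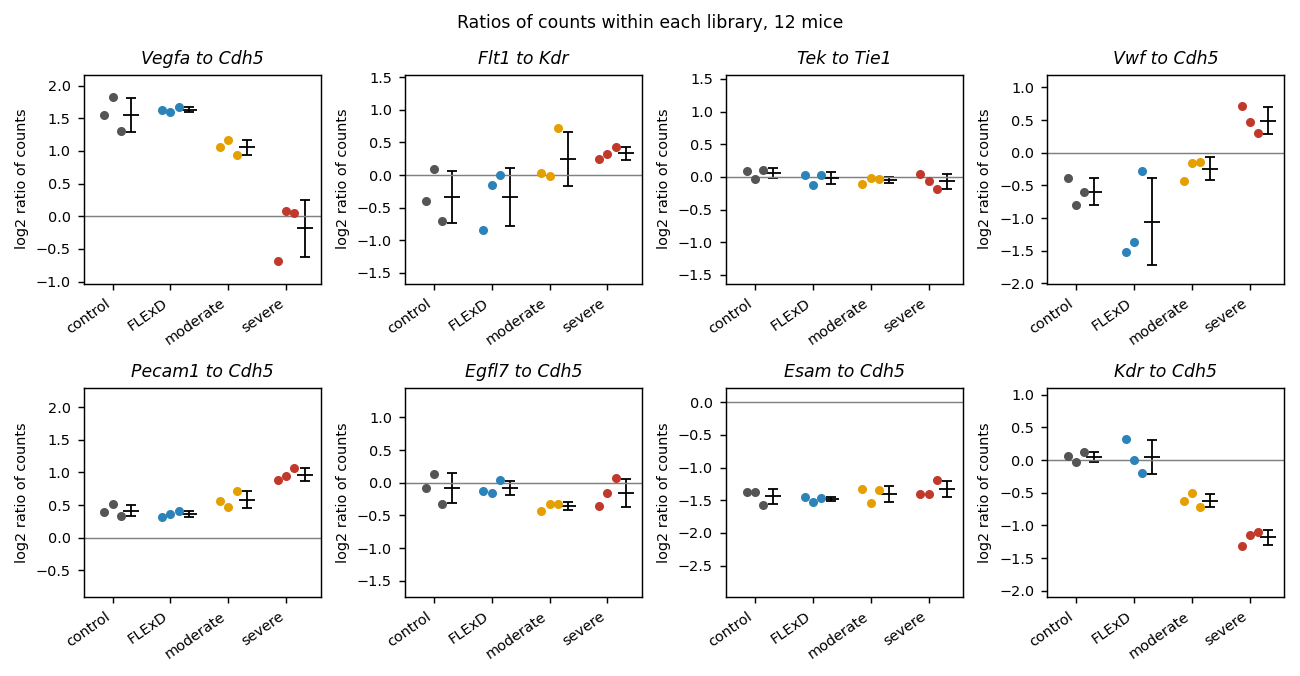
Log2 ratio of counts of 2 genes within each library (y axis, the same span in each panel) in control, FLExD, moderate and severe mice (x axis). Points are mice and bars the mean ± SD of 3. The Vegfa to Cdh5 and Kdr to Cdh5 ratios of all severe mice lie below the controls, Vwf to Cdh5 and Pecam1 to Cdh5 lie above them, and Tek to Tie1 and Esam to Cdh5 overlap them.

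On the TPM scale the order of the 10 genes changed in the severe model. In the controls Vegfa came first at 47.6 ± 9.7 TPM (SD, n = 3), then Egfl7 at 31.5 ± 5.0, Pecam1 at 15.5 ± 1.6, Cdh5 at 12.6 ± 0.88 and Esam at 9.0 ± 0.62, each clear of the next. Kdr at 6.07, Flt1 at 5.93, Tek at 5.41 and Tie1 at 5.33 TPM overlapped their neighbours in the order, and Vwf was last at 2.91 ± 0.32 TPM. The FLExD order was the same but for Tek and Tie1, which overlapped. In the moderate mice Vegfa, at 34.6 ± 10 TPM, overlapped Egfl7, at 27.4 ± 5.3 TPM, and Kdr, at 3.91 TPM, came down to overlap Vwf, at 3.87 TPM. In the severe mice Egfl7 was first at 32.7 ± 3.1 TPM and Pecam1 second at 23.9 ± 1.8 TPM. Vegfa followed at 16.1 ± 4.8 TPM and overlapped Cdh5 at 13.1 ± 1.5 TPM. Vwf had moved up to 6.43 ± 1.1 TPM, beside Tie1 and Tek, and Kdr was last at 2.76 ± 0.31 TPM, below Flt1 at 4.43 ± 0.56 TPM without overlap.

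**Figure D4:**
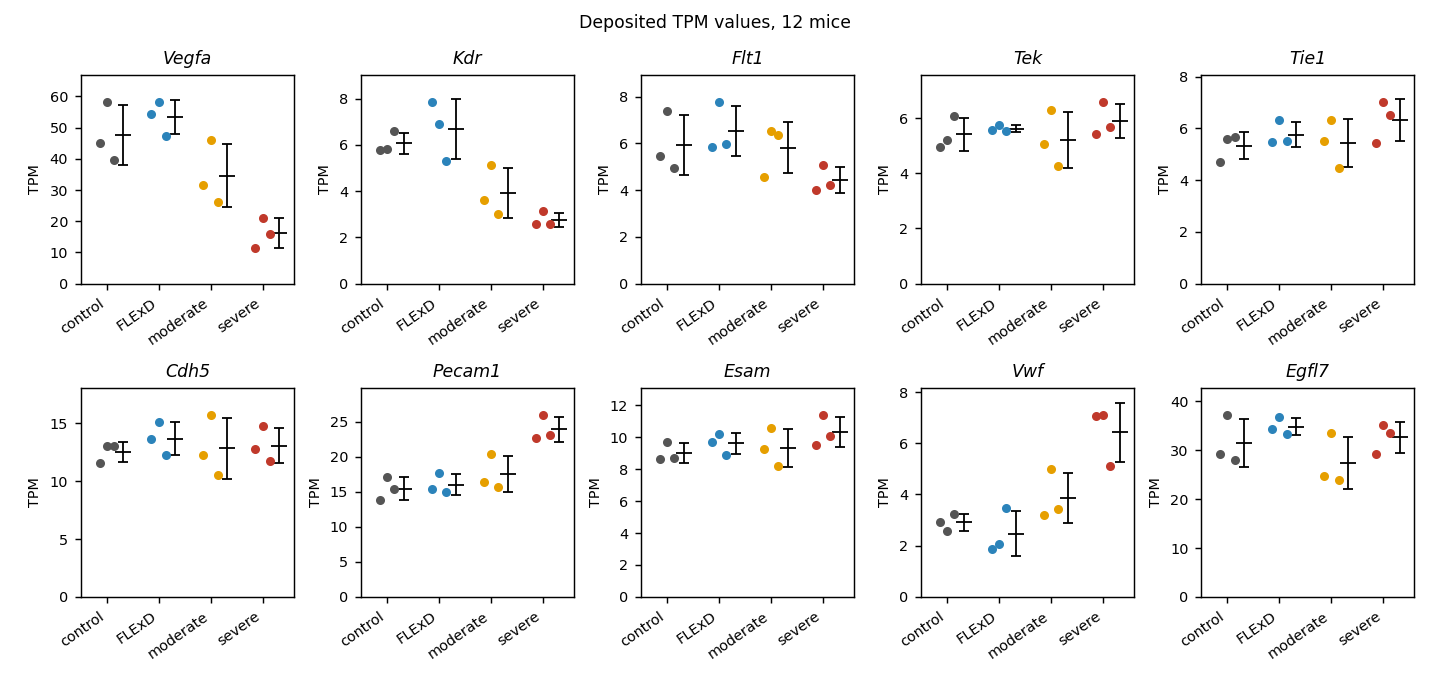
Deposited TPM values (y axis, from 0) of the 10 genes in control, FLExD, moderate and severe mice (x axis). Points are mice and bars the mean ± SD of 3. On this scale Vegfa and Kdr are lower in the severe mice, Pecam1 and Vwf are higher, and Cdh5, Esam, Tek, Tie1, Flt1 and Egfl7 overlap the controls.

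The genes whose CPM profile over the 12 mice was closest to that of Cdh5, by the root mean square difference of log2 CPM relative to the control mean, were Tbc1d7, Taf6, Aars2, Mafk and Mrpl28, with differences of 0.12 to 0.13 among 12307 genes compared. Those closest to Vegfa were Cox8b, Ldhd, Cpt1b, Coq10a and D10Jhu81e, with differences of 0.16 to 0.23. Cox8b, a muscle subunit of cytochrome c oxidase, had a log2 fold change of -3.02 in severe versus control muscle and Cpt1b, which brings fatty acids into muscle mitochondria, one of -2.71. Tbc1d7 and Taf6, closest to Cdh5, had -1.03 and -1.16.

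Among the other VEGF ligands and receptors, the lymphatic growth factor Vegfc and the co-receptors Nrp1 and Nrp2 were higher in severe muscle while Vegfb and Flt4 were lower with TMM. Of 7 genes tested, 3 were called higher and 2 lower in severe versus control, 2 higher and none lower in moderate versus control, and 1 higher and 2 lower in severe versus moderate muscle. Of all genes tested, 32.9% were called higher and 27.9% lower in severe versus control muscle, and 24.4% and 17% in moderate versus control. In severe versus moderate muscle the shares were 17.6% and 18.8%. These shares apply to the lists below as well, and counts near them set no list apart. With library size alone the counts of the 7 genes were 5 higher, 4 higher and 3 higher with none lower. The shares of all genes called higher were then 75.4%, 52.5% and 57.8%. Vegfc went from 1.66 ± 0.20 CPM (SD, n = 3) in control mice to 4.61 ± 0.25 in moderate and 3.66 ± 0.87 in severe mice, with log2 fold changes of 1.47 and 1.13. Nrp2 went from 13.6 ± 0.47 to 21.3 ± 2.3 and 31.5 ± 4.0 CPM, with log2 fold changes of 0.64 and 1.21. Vegfb, a ligand of Flt1, measured 14.2 ± 3.1, 16 ± 2.3 and 7.95 ± 1.5 CPM in the same groups, a severe log2 fold change of -0.84 with TMM and 0.46 with library size alone. Flt4, the receptor for Vegfc, changed by -0.95 with TMM and 0.35 with library size alone. The median of the 7 genes in severe versus control muscle was 0.12, beside 0.08 for all genes.

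In the angiopoietin system the ligands Angpt1 and Angpt2 were higher in the severe model, while Ptprb was lower with TMM. Of 4 genes tested 2 were called higher and 1 lower in severe versus control muscle, 1 higher in moderate versus control, and 1 higher and 1 lower in severe versus moderate muscle. Angpt1, the Tek agonist, measured 19.5 ± 1.1 CPM (SD, n = 3) in control, 55.2 ± 7.8 in moderate and 47.1 ± 12 in severe mice, log2 fold changes of 1.5 (SE 0.16, adjusted p = 5.5e-06) and 1.27 (SE 0.16, adjusted p = 1.0e-05). Angpt2, which can oppose Angpt1, was 1.68 ± 0.30 CPM in control, 1.54 ± 0.22 in moderate and 2.87 ± 0.08 in severe mice, a severe log2 fold change of 0.77. Ptprb, the endothelial phosphatase that acts on Tek, changed by -1.26 in the severe model with TMM, but 0.03 with library size alone. Angpt1 and Angpt2 remained higher in the severe model under library size and the endothelial scaling, at 2.57 and 2.13 for Angpt1 and 2.07 and 1.66 for Angpt2.

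Most of the 23 other pan-endothelial genes, 20 of which made the endothelial scaling, were lower in the severe model with TMM but not with library size alone. Of the 23, 17 were called lower in the severe versus control comparison and 2 higher, with a median log2 fold change of -0.92. With library size alone 1 was called lower and 9 higher, with a median of 0.38. Of all genes, 6.42% were then called lower and 75.4% higher. In moderate versus control muscle 12 were called lower and none higher with TMM, with 2 higher at an unadjusted p under 0.05 and none higher by DESeq2. In severe versus moderate muscle 7 were lower and none higher, again with 2 higher unadjusted and none by DESeq2. Myct1 and Arhgef15 changed by -1.65 and -1.61 on the log2 scale in severe versus control muscle with TMM, and by -0.36 and -0.31 with library size alone, neither called. The 2 genes called higher were Cd93, at 0.85, and Fli1, at 0.65, and they were higher under library size too, at 2.16 and 1.95. Both are also made by blood cells, whose markers rose as given with Pecam1, and the part of these cells in the values of Cd93 and Fli1 was not tested.

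Among genes of vessel subtypes, most capillary genes were lower in the severe model with TMM, while arterial genes were called in both directions. Of 7 capillary genes 5 were called lower in severe versus control muscle, 2 in moderate versus control and 5 in severe versus moderate. None was called higher by edgeR or DESeq2 in these comparisons, with 1 higher at an unadjusted p under 0.05 in each comparison with the severe model. Aqp1, a capillary water channel, went from 85.9 ± 18 to 32.8 ± 6.1 CPM (SD, n = 3), a log2 fold change of -1.39 with TMM and -0.09 with library size alone. Gpihbp1, which carries lipoprotein lipase into capillaries, changed by -1.37 with TMM and -0.07 with library size alone. Of 8 arterial genes 4 were called lower and 2 higher in severe versus control muscle, beside 27.9% and 32.9% of all genes. In moderate versus control 2 were lower, beside 17% of all genes. In severe versus moderate 1 was lower and 3 higher, beside 18.8% and 17.6%. The Notch ligand Dll4, a target of VEGF signaling in endothelial cells, fell from 5.39 ± 0.73 CPM in control mice to 2.11 ± 0.62 in moderate and 1.06 ± 0.44 in severe mice, log2 fold changes of -1.35 and -2.34. As a share of all counts Dll4 was lower too in severe muscle, at -1.05, and with the endothelial scaling, at -1.49. The gap junction gene Gja4 changed by -1.33 with TMM and -0.03 with library size alone, whereas Gja5 and the Notch target Hey1 were higher, at 1.00 and 1.05.

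Vcam1, Icam1 and Selp, adhesion molecules that activated endothelium displays for leukocytes, were called higher in both models. Of 7 venous and activated endothelial genes 4 were called higher in severe versus control muscle, 3 in moderate versus control and 2 in severe versus moderate. None was called lower by edgeR or DESeq2, with 1 lower at an unadjusted p under 0.05, in severe versus control muscle. Vcam1 rose from 4.48 ± 0.44 CPM (SD, n = 3) in control mice to 13.6 ± 2.3 in moderate and 33.8 ± 2.9 in severe mice, log2 fold changes of 1.6 and 2.91 (SE 0.14, adjusted p = 3.3e-10 in the severe model). Icam1 rose from 3.04 ± 0.46 to 7.32 ± 0.54 and 12.1 ± 0.46 CPM, log2 fold changes of 1.27 and 2.0. Both are also made by other cells. The selectin gene Selp had log2 fold changes of 1.03 (SE 0.36) in the moderate and 1.38 (SE 0.35) in the severe model. Those of Sele were 1.67 (SE 0.70) and 1.78 (SE 0.67), and Sele was not called in the moderate model (adjusted p = 0.057). The part of cells other than endothelium in the selectin values was not tested. Both selectin genes were chosen after their values had been seen. Of 7 sprouting genes tested of 8 listed, 2 were higher and 1 lower in severe versus control muscle, 1 lower in moderate versus control, and 2 higher and 1 lower in severe versus moderate. They were Angpt2 and the semaphorin receptor Plxnd1, at 0.63, and Dll4, in the severe versus control comparison. Angpt2 and Dll4 are on 2 of the lists. Of 6 lymphatic genes 3 were higher in each of the 3 comparisons, and 2 were lower in severe versus control and in severe versus moderate muscle. Lyve1 changed by 2.39 and Pdpn by 2.04 in the severe model, and Flt4 and the lymphatic chemokine Ccl21a by -0.95 and -0.89 with TMM but 0.35 and 0.41 with library size alone. Prox1, named after its values had been seen, was the other lymphatic gene called higher. It changed by 0.87 (SE 0.20) in the moderate and 1.47 (SE 0.20) in the severe model with TMM. Lyve1 is also found on macrophages and Pdpn on fibroblasts, and Ccl21a has near-identical copies, so its counts are uncertain.

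Genes that sense oxygen or act on Vegfa were split. Of 15 tested, 2 were called higher and 7 lower in severe versus control muscle, 3 higher and 6 lower in moderate versus control, and 1 higher and 8 lower in severe versus moderate. With library size alone the severe counts were 8 higher and 6 lower, beside 75.4% and 6.42% of all genes. Hif1a, which encodes the oxygen-regulated transcription factor subunit, measured 31.5 ± 2.7 CPM (SD, n = 3) in control, 41.0 ± 3.2 in moderate and 61.7 ± 11 in severe mice, a severe log2 fold change of 0.97 (SE 0.12, adjusted p = 5.0e-06). Vhl, which marks that subunit for destruction, changed by 0.98. Target genes of the pathway went both ways. Ankrd37 and Slc2a1 were called higher in moderate versus control muscle, at 0.91 and 0.69. Neither was called in severe versus control, at -0.39 and 0.41, and Adm and Egln3 were called in neither comparison. Ldha and Pdk1 were called lower in both, at -2.11 and -1.95 in severe versus control muscle. The regulators Epas1, Egln1 and Esrra were called lower there too with TMM, at -1.87, -2.40 and -1.06, while Ppargc1a, at -0.40, was not called. These genes were chosen after their values had been seen. Bnip3 went from 97.3 ± 19 to 40.2 ± 3.2 and 16.2 ± 2.8 CPM, log2 fold changes of -1.28 and -2.59. Pfkfb3 went from 151 ± 82 to 21.4 ± 5.3 and 13.9 ± 2.2 CPM, log2 fold changes of -2.82 and -3.44, with a wide spread in the controls. Both had lower values in severe than in control muscle also as a share of all counts, at -1.29 and -2.12. Bnip3 and Pfkfb3 are abundant in muscle fibers, whose markers fell as given next. The part of fibers in their values and in those of the other genes of this list was not tested.

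**Figure D5:**
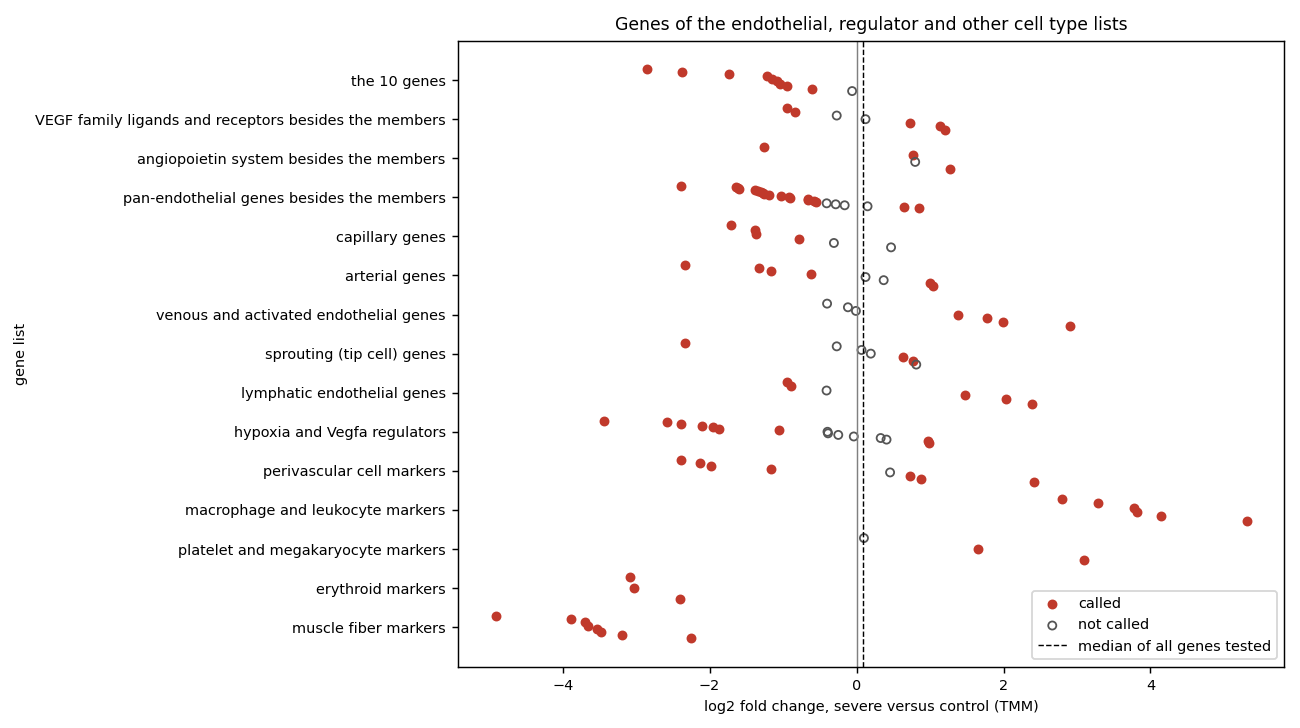
Log2 fold change in severe versus control muscle with TMM (x axis) for each gene of the lists named on the y axis. Filled points were called, open points were not, and the dashed line is the median of all genes tested, 0.08. The 10 genes and the pan-endothelial list lie mostly below it, the activated endothelial and macrophage lists mostly above it.

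Markers of other cells moved strongly with the models. All 8 muscle fiber markers were called lower in severe versus control and severe versus moderate muscle and 7 in moderate versus control, and their sum went from 72204 to 98988 TPM in control mice to 41766 to 48358 TPM in moderate and 11111 to 19021 TPM in severe mice. Ckm and Pvalb changed by -3.89 and -4.91 in the severe model. All 6 macrophage and leukocyte markers were higher in the 3 comparisons, with Cd68 at 5.31 and Itgam at 4.15 in severe versus control muscle. Of 3 platelet markers tested 2 were higher in severe versus control and moderate versus control muscle and 1 in severe versus moderate, with Pf4 at 3.10 and Itga2b at 1.65 in the severe model. All 3 erythroid markers were lower in severe versus control and severe versus moderate muscle and 1 in moderate versus control. Hbb-b1 and Hba-a1, which have near-identical copies, changed by -3.08 and -3.02. Of 8 perivascular markers 3 were higher and 4 lower in severe versus control muscle, beside 32.9% and 27.9% of all genes. In moderate versus control 2 were higher and 3 lower, beside 24.4% and 17%. In severe versus moderate 3 were higher and 4 lower, beside 17.6% and 18.8%. The pericyte channel genes Kcnj8 and Abcc9 fell, at -2.39 and -2.14, although Abcc9 is also made in muscle, and smooth muscle Acta2 and mural Notch3 rose, at 2.42 and 0.88. Myh11, the smooth muscle myosin, moved unlike Acta2. It was called higher in moderate versus control muscle, at 0.99, and lower in severe versus control, at -1.17 with TMM but 0.12 with library size alone, and in severe versus moderate, at -2.16. Rgs5 was called lower in the 3 comparisons, at -1.99 in severe versus control muscle, and Cspg4 higher there, at 0.72. These 3 genes were chosen after their values had been seen. The part of these cells in the values of the 10 genes was not tested.

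Between FLExD and control muscle none of the 108 other list genes tested was called by edgeR, DESeq2 or limma. At an unadjusted p under 0.05, 1 lymphatic gene was higher and 1 erythroid gene lower.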

How the data were processed

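Per the labels and the study's methods, the authors trimmed single-end reads of poly(A) RNA, mapped them with RSEM 1.2.4, modified to call Bowtie, to a merged mouse annotation on mm10, mapped the remaining reads with TopHat2 2.0.8b, and deposited expected counts and TPM values for 37748 genes. RSEM divides reads that map to several genes. Expected counts were rounded and fitted in 1 model of the 4 groups with edgeR 4.0.16 in R 4.3.3 (filterByExpr, TMM, robust quasi-likelihood test), with Benjamini-Hochberg adjustment over 16679 genes. Standard errors were derived from the F statistic. limma 3.58.1 was run on log2(TPM + 1) and DESeq2 1.42.0 on the counts. The test was tried on simulated data first. At these depths 3 counts equal 0.0676 to 0.155 CPM, and depth errors cover counting only. Loci came from GENCODE M21 on GRCm38, promoters from RefSeq, and figures from matplotlib 3.10.9 in Python 3.11.15.

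Named from each list were up to 2 genes called higher and 2 called lower in severe versus control muscle, with the largest change among those without overlap whose group with more counts averaged 50 or more. Likeness was computed over genes with a mean of at least 50 counts. The members and lists were chosen with earlier results of these data known.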

Additional observations from a re-analysis of the deposited data

How the results depend on the processing

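The alternatives were library size alone, factors by the median of ratios, DESeq2, a minimum of 10 counts in each library, no filter, limma on log2(TPM + 1), only the 2 groups compared, no fold threshold, a log2 fold change of at least 1, each mouse left out in turn, TPM in place of counts for the ratios and, added after the data had been seen, the endothelial scaling. No paired analysis was possible because the groups share no replicate numbers. Each group has 3 mice, and with 1 left out the remaining 2 share the spread of all groups.

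In severe versus control muscle the 9 genes called lower became 2 with library size alone (2 higher), 2 with limma on log2(TPM + 1) (2 higher), 3 with the endothelial scaling (1 higher), 8 with a minimum of 10 counts (without Pecam1) and 7 at a log2 fold change of at least 1. In moderate versus control muscle the 5 called lower became 1 with library size alone (1 higher), 1 with limma, 2 with the endothelial scaling, 3 with no filter, 4 with a minimum of 10 counts, 8 with no fold threshold and 1 at a log2 fold change of at least 1. In severe versus moderate muscle the 7 became 2 with library size alone (1 higher), 1 with limma (1 higher), 3 with the endothelial scaling, 5 with no filter and 5 with a minimum of 10 counts (both without Tek and Tie1), 6 with only the 2 groups compared (without Tie1), 8 with no fold threshold and 3 at a log2 fold change of at least 1. The remaining alternatives left these counts as they were. Over all genes in severe versus control muscle, limma called 998 lower and 10713 higher of 16679. A minimum of 10 counts gave 3751 and 4139 of 12954. In moderate versus control muscle limma called 747 and 5273. No filter gave 2446 and 4405 of 28033, and the minimum of 10 counts 2256 and 2981. In severe versus moderate muscle limma called 642 and 8050, no filter gave 2874 and 3202, and the minimum of 10 counts 2489 and 2287. Only the 2 groups gave 3011 and 3049 of 16188. With 1 mouse left out the counts called lower were 9 in severe versus control, 4 to 7 in moderate versus control and 5 to 8 in severe versus moderate muscle. Over all genes 4426 to 4656, 2552 to 3000 and 2572 to 3258 were then called lower in the same comparisons. Those called higher were 5274 to 5523, 3650 to 3979 and 2300 to 2972. Counts over all genes with no fold threshold or at a log2 fold change of at least 1 were not computed.

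The following log2 fold changes turned positive and were called on at least 1 of the scales. With library size alone in severe versus control muscle they were Tek 0.21, Tie1 0.34, Cdh5 0.15, Pecam1 0.70, Esam 0.26, Vwf 1.25 and Egfl7 0.079. With limma on log2(TPM + 1) in the same comparison they were Tek 0.11, Tie1 0.21, Cdh5 0.052, Pecam1 0.60, Esam 0.18, Vwf 0.92 and Egfl7 0.058. With the endothelial scaling they were Pecam1 0.28 and Vwf 0.84. In moderate versus control muscle with library size alone they were Flt1 0.026, Tek 0.057 and Vwf 0.50. In severe versus moderate muscle they were Tek 0.16, Tie1 0.18, Cdh5 0.0018 and Esam 0.088 with library size alone, and Tek 0.16, Tie1 0.19, Cdh5 0.036 and Esam 0.13 with limma. Others, called on neither scale, changed sign too. By library size they were Tie1 0.17, Cdh5 0.15, Pecam1 0.30 and Esam 0.17 in moderate versus control muscle, and Pecam1 0.39 and Egfl7 0.22 in severe versus moderate muscle. With limma they were Tie1 0.018, Cdh5 0.016, Pecam1 0.17, Esam 0.045 and Vwf 0.30 in the former, and Pecam1 0.43 and Egfl7 0.26 in the latter. With the endothelial scaling they were Tie1 0.0078, Pecam1 0.15, Esam 0.019 and Vwf 0.34 in the former, and Pecam1 0.13 in the latter. Vwf in severe versus control muscle was 0.039 with no filter and 0.054 with a minimum of 10 counts. The median of all genes moved with these scalings, in severe versus control muscle from 0.08 with TMM to 1.39, 0.79 and 0.97 with library size, limma and the endothelial scaling. For moderate versus control with no filter, the cause was not tested. Vegfa and Kdr were called lower in severe versus control muscle under all 9 settings that used the 12 mice or the 2 groups compared. No ratio moved by more than 1 SD when TPM replaced counts.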
